A study of Mus musculus with 9 samples.

Results

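The adipogenic regulators and lipid genes described here were *Pparg*, *Cebpa*, *Cebpb*, *Cebpd*, *Fabp4*, *Lpl*, *Plin2*, *Plin4*, *Cd36* and *Apod*, measured in mouse preosteoblast MC3T3-E1 cells exposed to low-intensity pulsed ultrasound (LIPUS). All probe sets that the array annotation assigns to 1 of these 10 symbols were taken, which gave 19 of the 45037 probe sets compared and 10 of the 18193 genes named. MC3T3-E1 is an established line from the calvaria of newborn C57BL/6 mice, so each array reports a single cultured line. All groups shared 14 days of culture with 10% serum, 0.3 mM ascorbic acid and 10 mM β-glycerophosphate, followed by replating for 24 h. The cells were then sonicated through the dish bottom (30 mW/cm2, 1.5 MHz, 20 min) and cultured for 24 h (LIPUS 24 h) or 6 h (LIPUS 6 h), or were mock-treated (control), with 3 arrays for each condition. How long the control was cultured after mock treatment is not given in the sources used here. LIPUS 24 h and LIPUS 6 h also differ in culture time, so time after LIPUS and time in culture cannot be told apart. The same 3 controls were set against both time points. LIPUS and time in culture therefore cannot be fully told apart in the comparisons with control either. Arrays with the same replicate number are called an experiment below, and each treated array was compared with the control array of its number.

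Osteoblasts and adipocytes arise from common mesenchymal progenitors, and PPARγ is the nuclear receptor that drives the adipocyte program. C/EBPβ and C/EBPδ act early in that program, and C/EBPα maintains it together with PPARγ. Their targets include genes for the uptake, transport and storage of fatty acids. Signals are given on the log2 scale of the array, on which 1 unit is a 2-fold difference. Since probe sets differ in how well they hybridize, fold changes and tests were made only within a probe set. The percentile of a signal among all probe sets of an array is given as its brightness, not as a transcript level to set against another gene.

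At 24 h after LIPUS, 1 of the 19 probe sets was higher than control and 1 was lower. *Apod*, a secreted lipocalin that carries small lipids, increased to about 2 times the control on its probe set 1416371_at (log2 fold change 1.04 ± 0.03, SE, adjusted p = 4.93e-05 by limma). *Plin2*, a coat protein of lipid droplets, fell by 0.18 on the log2 scale (SE 0.03, adjusted p = 0.0191). The other 17 probe sets did not pass the threshold of 0.05. Over all probe sets, 2.73% were called at 24 h, 1.8% higher and 0.933% lower. At 6 h limma called none of the 19, against 0% of all probe sets, and 1 of the 19 and 1575 of all had an unadjusted p below 0.05. Between 24 h and 6 h, *Apod* was called higher and no probe set lower, beside 2.02% of all probe sets called (1.14% higher, 0.879% lower). At 24 h, 1 of the 19 was above and 6 were below their own control in all 3 experiments, beside 10.3% and 6.84% of all probe sets, and the 6 belong to *Cebpb*, *Fabp4*, *Plin2* and *Plin4*. The median log2 fold change of the 19 probe sets at 24 h was -0.08, and that of all probe sets was 0.0012. *Apod* and *Plin4* are among the genes that the study itself selected from these arrays, so their values here are not independent evidence of a direction.

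**Figure D1:**
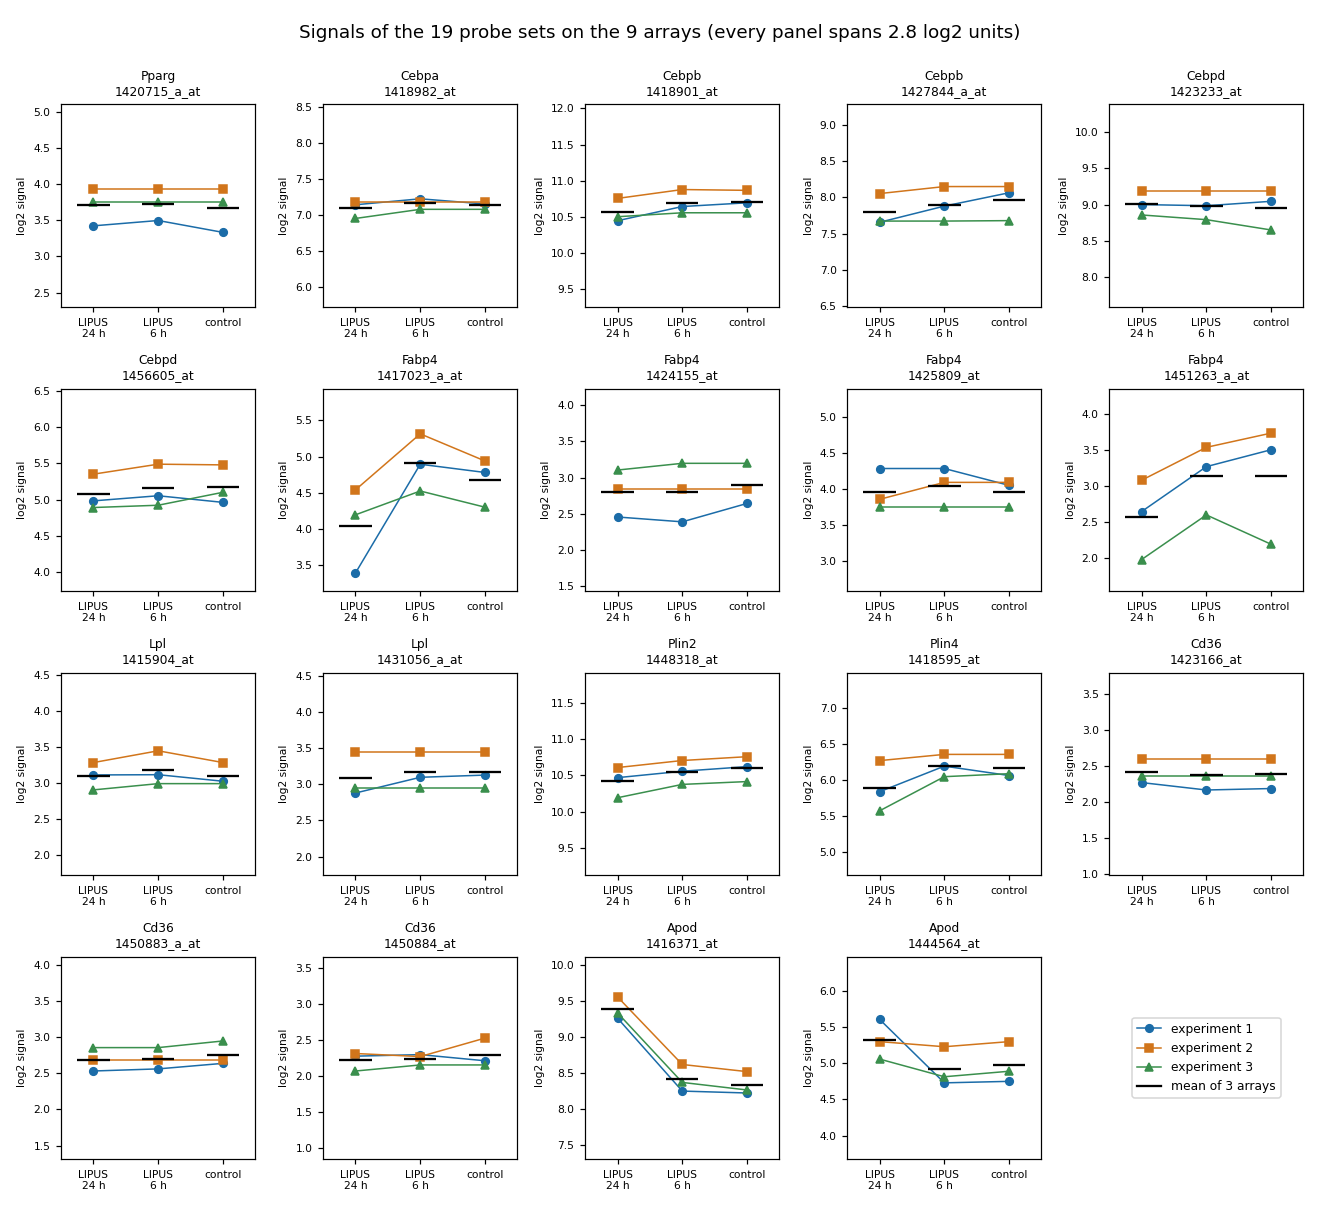
Log2 signal of the 19 probe sets on the 9 arrays, with LIPUS 24 h, LIPUS 6 h and control from left to right, 1 line for each experiment and short bars for the group means. The 3 LIPUS 24 h arrays of Apod 1416371_at lie between 9.26 and 9.55, above all 6 other arrays.

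No call at 24 h remained without experiment 1. When the arrays of experiment 1 were left out, limma called none of the 45037 probe sets in either comparison with LIPUS 24 h, against control or against LIPUS 6 h. The log2 fold changes then were 1.05 for *Apod* (adjusted p = 0.143) and -0.19 for *Plin2* (adjusted p = 0.383). In experiments 2 and 3 many values were identical on all 3 arrays, namely 36.3% and 28.1% of all probe sets, against 0.224% in experiment 1. Of the 19 probe sets, 7 were identical throughout experiment 2 and 4 throughout experiment 3. The probe sets of *Pparg*, *Lpl* (1431056_a_at) and *Cd36* (1423166_at) were identical in both, so that only experiment 1 carried a difference. The source of the identical values is not given, and their part in the calls was not tested.

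The transcription factors gave no call in any comparison. *Pparg* (1420715_a_at) had log2 signals of 3.42, 3.94 and 3.75 at LIPUS 24 h, 3.50, 3.94 and 3.75 at LIPUS 6 h, and 3.33, 3.94 and 3.75 in control. The groups overlapped completely, and the signal ranked between percentiles 25.4 and 31.3 of all probe sets on an array. Its log2 fold change at 24 h was 0.03 (95% confidence interval -0.11 to 0.17, adjusted p = 0.857). *Cebpa* (1418982_at) had 7.14, 7.18 and 6.95 at LIPUS 24 h, 7.23, 7.18 and 7.08 at LIPUS 6 h, and 7.15, 7.18 and 7.08 in control. The 24 h array of experiment 3 was the lowest, and the log2 fold change at 24 h was -0.05 (interval -0.15 to 0.06, adjusted p = 0.704).

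*Cebpb* was below its own control in all 3 experiments on both probe sets at 24 h, without a call. On 1418901_at the log2 signals were 10.45, 10.76 and 10.50 at LIPUS 24 h, 10.64, 10.88 and 10.56 at LIPUS 6 h, and 10.70, 10.87 and 10.56 in control. The difference was widest in experiment 1, and the values of the groups overlapped when the experiments were pooled. The log2 fold change was -0.14 at 24 h (interval -0.23 to -0.05, adjusted p = 0.146) and -0.01 at 6 h (adjusted p = 0.975). On 1427844_a_at the signals were 7.66, 8.05 and 7.67 at LIPUS 24 h, 7.88, 8.15 and 7.67 at LIPUS 6 h, and 8.06, 8.15 and 7.68 in control, with a log2 fold change of -0.17 at 24 h (adjusted p = 0.398). *Cebpd* had log2 fold changes at 24 h of opposite sign on its probe sets, 0.05 on 1423233_at (adjusted p = 0.703) and -0.11 on 1456605_at (adjusted p = 0.596). Its signals on 1423233_at were 8.9998, 9.18 and 8.86 at LIPUS 24 h, 8.98, 9.18 and 8.79 at LIPUS 6 h, and 9.05, 9.18 and 8.65 in control, so that the groups overlapped.

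**Figure D2:**
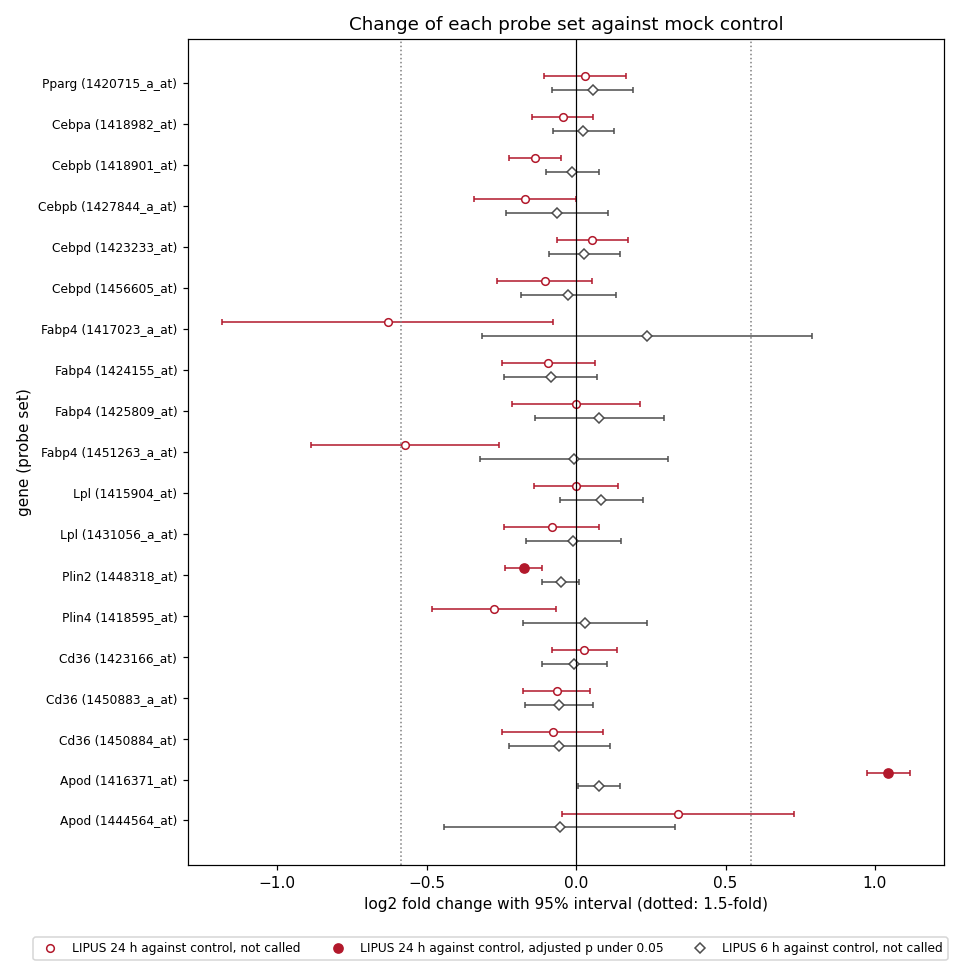
Log2 fold change of the 19 probe sets at LIPUS 24 h and at LIPUS 6 h against control (limma), with 95% confidence intervals. Dotted lines mark 1.5-fold, filled points mark an adjusted p below 0.05, and the Apod 1416371_at and Plin2 points at 24 h are the filled ones.

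Among the lipid droplet proteins, *Plin2* was lower at 24 h and *Plin4* was not called. *Plin2* (1448318_at) had log2 signals of 10.47, 10.61 and 10.19 at LIPUS 24 h, 10.56, 10.71 and 10.38 at LIPUS 6 h, and 10.62, 10.76 and 10.42 in control. In each experiment LIPUS 24 h was lowest, LIPUS 6 h intermediate and control highest, although the groups overlapped between experiments. The ratio of LIPUS 24 h to control was 0.900, 0.901 and 0.857 in the 3 experiments. The log2 fold change was -0.18 at 24 h and -0.05 at 6 h (adjusted p = 0.959), and that between 24 h and 6 h was -0.12 (adjusted p = 0.0830), so that the time points did not differ at the threshold. The *Plin2* call was also lost without any 1 of 7 arrays, with adjusted p-values of 0.0533 to 0.133, and without experiment 2 (adjusted p = 0.285).

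*Plin4*, a perilipin of adipocytes that coats small droplets, had 5.84, 6.27 and 5.57 on 1418595_at at LIPUS 24 h, 6.19, 6.35 and 6.05 at LIPUS 6 h, and 6.06, 6.35 and 6.09 in control. It lay below control in 3 of 3 experiments at 24 h, by log2 ratios of -0.22, -0.09 and -0.51. The study lists this probe set among those lowered by 1.5-fold or more in all 3 experiments. In the deposited values the ratios were 0.856, 0.942 and 0.700, and none reached 1.5-fold. The source of this difference was not tested. The spread between experiments was wide, and the log2 fold change of -0.27 (interval -0.48 to -0.07) gave an adjusted p of 0.229. At 6 h it was 0.03 (adjusted p = 0.977).

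*Fabp4*, the cytosolic fatty acid carrier of adipocytes, was measured by 4 probe sets that did not behave alike. On 1417023_a_at the log2 signals were 3.39, 4.54 and 4.19 at LIPUS 24 h, 4.89, 5.31 and 4.52 at LIPUS 6 h, and 4.78, 4.94 and 4.30 in control. In every experiment LIPUS 24 h was lowest and LIPUS 6 h highest, but the distance between LIPUS 24 h and control varied, with log2 ratios of -1.39, -0.40 and -0.11. The log2 fold change was -0.63 at 24 h (interval -1.18 to -0.08, adjusted p = 0.321) and -0.87 between 24 h and 6 h (adjusted p = 0.174). The signal of this probe set ranked between percentiles 25.4 and 52.1 of an array. On 1451263_a_at the signals were 2.65, 3.08 and 1.98 at LIPUS 24 h, 3.27, 3.54 and 2.60 at LIPUS 6 h, and 3.50, 3.73 and 2.19 in control. LIPUS 24 h was again below control in all 3 experiments, with a log2 fold change of -0.57 (interval -0.89 to -0.26, adjusted p = 0.0910). This probe set passed the threshold with the experiment as a random effect (adjusted p = 0.0259), without experiment 3 (adjusted p = 0.0111) and without the control array of experiment 3 (adjusted p = 0.00828). Its signal ranked between percentiles 1.13 and 28.4 of an array. The other *Fabp4* probe sets had log2 fold changes at 24 h of -0.09 (1424155_at, adjusted p = 0.628) and -0.00042 (1425809_at, adjusted p = 1.00).

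*Lpl*, the lipase that releases fatty acids from lipoproteins, and *Cd36*, a fatty acid translocase, gave dim and nearly flat signals. Both probe sets of *Lpl* and all 3 of *Cd36* ranked below the 30th percentile on every array, as did 1424155_at and 1451263_a_at of *Fabp4*. On 1415904_at *Lpl* had 3.11, 3.28 and 2.91 at LIPUS 24 h, 3.12, 3.45 and 2.99 at LIPUS 6 h, and 3.03, 3.28 and 2.99 in control. The groups overlapped, and the log2 fold change at 24 h was 0.00012 (interval -0.14 to 0.14, adjusted p = 1.00). The other *Lpl* probe set gave -0.08 (adjusted p = 0.668). On 1423166_at *Cd36* had 2.27, 2.60 and 2.37 at LIPUS 24 h, 2.17, 2.60 and 2.37 at LIPUS 6 h, and 2.19, 2.60 and 2.37 in control. Its log2 fold change at 24 h was 0.03 there (adjusted p = 0.835), and -0.07 and -0.08 on the other probe sets (adjusted p = 0.637 and 0.698). Since no detection calls were used, transcripts near background cannot be told apart from low expression.

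*Apod* was the only one of the 10 genes with groups that did not overlap, and this held at 24 h against control and against 6 h. Over all probe sets, 1.47% did not overlap between LIPUS 24 h and control, and 1.22% between LIPUS 24 h and LIPUS 6 h. On 1416371_at the log2 signals were 9.26, 9.55 and 9.33 at LIPUS 24 h, 8.25, 8.62 and 8.37 at LIPUS 6 h, and 8.22, 8.52 and 8.27 in control. The ratio of LIPUS 24 h to control was 2.05, 2.05 and 2.09 in the 3 experiments (mean 2.06, SD 0.03). In the deposited values the spread between experiments was therefore small against the difference. The study lists a larger mean ratio with a wider spread for this probe set, and why these differ was not tested. In the deposited values 1416371_at was also the only probe set of the 19 with a ratio of 1.5 or more in the same direction in each experiment. Of all probe sets, 0.0955% (43) met this rule upward and 0.0355% (16) downward. The study counted more in each direction at 24 h, most so downward, so the deposited values do not give its full selection. The source of this difference was not tested. The study used the same rule to select genes from these arrays, so for *Apod*, which it selected, passing is not further evidence. At 6 h the log2 fold change was 0.08 ± 0.03 (SE), higher in 3 of 3 experiments but not called (adjusted p = 0.959). The difference between 24 h and 6 h was 0.97 ± 0.03 (adjusted p = 8.38e-05), and the order of the levels was therefore LIPUS 24 h above LIPUS 6 h and control, the difference between LIPUS 6 h and control not passing the threshold. With 11 of the 12 fits that left out an array or an experiment the *Apod* call held, with adjusted p-values of 0.000205 to 0.0164, and the exception was the fit without experiment 1.

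The second *Apod* probe set, 1444564_at, did not give the same result. It had 5.61, 5.30 and 5.06 at LIPUS 24 h, 4.73, 5.23 and 4.81 at LIPUS 6 h, and 4.75, 5.30 and 4.89 in control. Only the 24 h array of experiment 1 stood clearly above its control, and the log2 fold change was 0.34 (interval -0.05 to 0.73, adjusted p = 0.468). The signal was above control in 2 experiments and equal in 1. It ranked between percentiles 47.3 and 58.2 of an array, and that of 1416371_at between 79.9 and 89.7. Of the 17 probe sets not called at 24 h, 14 had an interval that lay within 1.5-fold in both directions. The interval of this probe set and those of 1417023_a_at and 1451263_a_at of *Fabp4* reached beyond it. The 14 include the 8 probe sets that had identical values on all 3 arrays of experiment 2 or 3. Identical values set a difference to 0 and narrow the interval, and several of the 14 gave dim signals. A narrow interval is therefore not evidence that the transcript was unchanged.

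**Figure D3:**
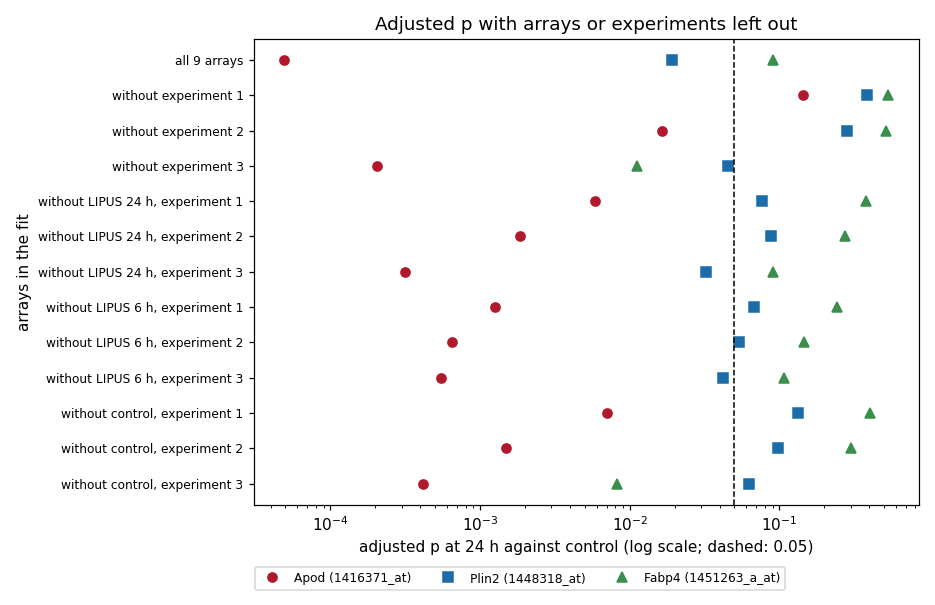
Adjusted p at LIPUS 24 h against control (log axis) for Apod 1416371_at, Plin2 1448318_at and Fabp4 1451263_a_at with all 9 arrays and with each experiment or array left out. The Apod point lies right of the dashed line at 0.05 only without experiment 1 (0.143), whereas Plin2 lies right of it in 9 of the 12 fits.

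The promoters of *Apod* and *Plin2* are shown because these were the genes called at 24 h. Each window holds 300 bases in the direction of transcription, from 250 bases before the start site, from RefSeq (GRCm38.p6). Windows were found for 7 of the 10 genes, 9 windows in all. *Apod* lies on the minus strand at chr16:31314759-31315058, and capitals mark a match to the C/EBP core. *Plin2* lies on the minus strand at chr4:86670010-86670309, and capitals mark a half-site for PPAR receptors read on the opposite strand.
Apod: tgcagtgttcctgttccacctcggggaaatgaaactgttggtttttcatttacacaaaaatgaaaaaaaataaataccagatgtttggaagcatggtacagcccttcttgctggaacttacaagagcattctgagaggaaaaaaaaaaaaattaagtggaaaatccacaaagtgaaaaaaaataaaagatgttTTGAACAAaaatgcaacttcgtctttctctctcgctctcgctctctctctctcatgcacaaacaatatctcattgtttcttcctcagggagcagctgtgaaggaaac
Plin2: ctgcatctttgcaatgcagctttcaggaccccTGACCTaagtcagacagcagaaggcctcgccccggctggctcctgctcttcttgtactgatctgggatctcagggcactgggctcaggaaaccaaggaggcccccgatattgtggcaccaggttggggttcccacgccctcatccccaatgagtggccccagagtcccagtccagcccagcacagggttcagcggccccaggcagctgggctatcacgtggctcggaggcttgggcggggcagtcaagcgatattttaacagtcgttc
The *Apod* window has a GC content of 37.3% and the *Plin2* window one of 60.7%, with a median of 52.7% over 32851 windows. Both strands were searched for 7 motifs. The C/EBP core TTGNNCAA occurred in 6.4% of all windows and, among the 7 genes with a window, only in *Apod*, as TTGAACAA at positions -57 to -50 from the start site. The half-site AGGTCA occurred in 16.3% of all windows, and in *Plin2* (positions -218 to -213), *Cd36* and 2 of the windows of *Pparg*. The full element AGGTCANAGGTCA, a direct repeat of that half-site, occurred in 0.0396% of all windows and in none of these 9. The other motifs searched were the TATA box TATAAA (13.6% of all windows), the CCAAT box (37.4%), the cyclic AMP half-site TGACG (20.8%) and the GC box GGGCGG (35.7%). Of these, *Plin2* held a CCAAT box and a GC box, and *Apod* none. These matches describe the letters of the windows only.

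The 10 genes were set beside lists of related genes, each gene taken by its probe set of highest mean. At 24 h, 4.14% of all named genes were called, 2.57% higher and 1.57% lower, with a median log2 fold change of 0.0014. Of the list for fatty acid and triglyceride synthesis, 19 of 19 genes were measured, 2 were higher and 3 were lower, with a median of -0.09. *Scd1*, a stearoyl-CoA desaturase, fell by 0.33 on the log2 scale (SE 0.05, adjusted p = 0.0151), and *Elovl5*, a fatty acid elongase, fell by 0.26 (SE 0.03, adjusted p = 0.0104). Both were also lower at 24 h than at 6 h (adjusted p = 0.0122 and 0.0103). *Gpam*, which catalyses the first step of glycerolipid synthesis, was higher by 0.19 (adjusted p = 0.0204), and *Lpin1*, a phosphatidate phosphatase, by 0.19 (adjusted p = 0.0440). The lower genes also included *Me1*, the cytosolic malic enzyme, at -0.11 (adjusted p = 0.0495), which is named after its value was seen.

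In the other lists 2 genes were called at 24 h. Of 28 measured genes among 30 adipogenic transcription factors and repressors, 1 was higher and none lower, with a median of 0.03. The higher one was *Ppargc1b*, a coactivator of nuclear receptors, at 0.48 ± 0.08 (SE, adjusted p = 0.0321). Of 13 measured genes among 16 for fatty acid oxidation and PPAR targets, 1 was lower, *Pdk4*, a kinase that inhibits pyruvate dehydrogenase, at -0.17 ± 0.03 (adjusted p = 0.0209), and the median was -0.06. No gene was called at 24 h among 14 of 15 droplet coat and lipolysis genes (median -0.01), 15 of 17 for fatty acid uptake and lipoprotein handling (median -0.10) or 11 of 11 lipocalins and apolipoproteins (median 0), of which 3, 6 and 1 had an unadjusted p below 0.05. In these lists *Cidec* had -0.31 (adjusted p = 0.337), *Lipe* -0.14 (0.694), *Gpihbp1* -0.34 (0.250), *Fabp3* -0.28 (0.0984), *Clu* 0.22 (0.0982) and *Obp2a* -0.12 (0.589). Between 24 h and 6 h, where 3.24% of genes were called, 2 further genes were lower at 24 h, both named after their values were seen. The lipoprotein receptor gene *Lrp1* had a log2 fold change of -0.54 (adjusted p = 0.00385), with -0.16 at 24 h (adjusted p = 0.240) and 0.39 at 6 h (adjusted p = 0.959) against control. *Acly*, the ATP citrate lyase gene of the synthesis list, had -0.26 (adjusted p = 0.0253). No list gene was called at 6 h. Without experiment 1 none of the list calls at 24 h against control held, with adjusted p-values of 0.172 to 0.534. Over the 12 fits that left out an array or an experiment, *Me1* and *Lpin1* were called in 0, *Elovl5* in 6, *Scd1* in 5, *Gpam* in 3, and *Ppargc1b* and *Pdk4* in 2 each.

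**Figure D4:**
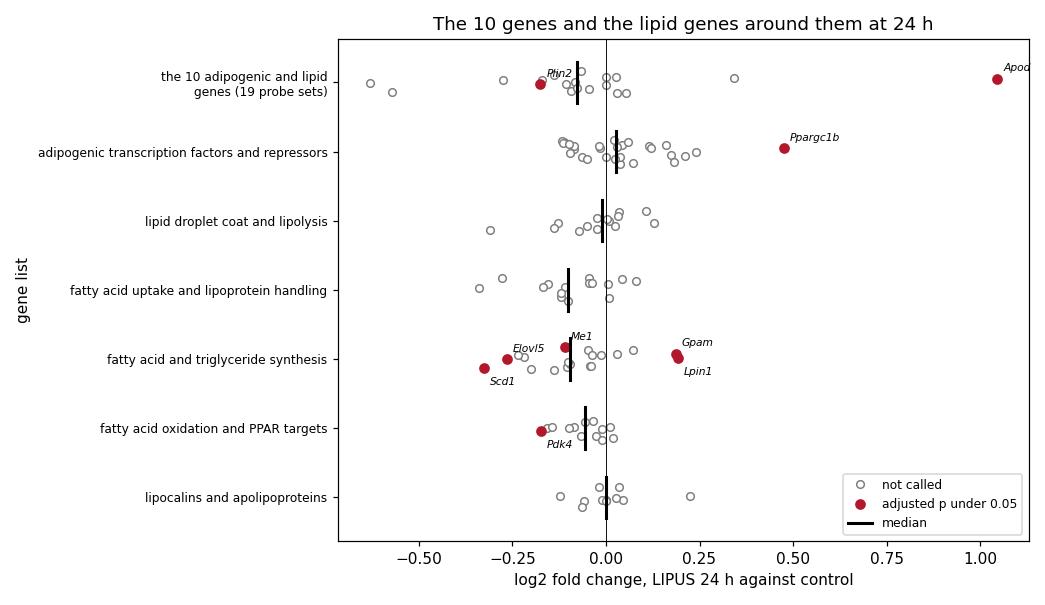
Log2 fold change at LIPUS 24 h against control, with 1 point for each of the 19 probe sets (top row) or for each gene of 6 lipid lists, and a bar at the median. Red points had an adjusted p below 0.05, 2 in the top row and 7 in the lists.

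The markers of the cell type and of other cells gave 1 call at 24 h against control, *Flt1*. The mean log2 signal of 9 osteoblast markers was 8.97 to 9.23 at LIPUS 24 h, 8.89 to 9.15 at LIPUS 6 h and 8.84 to 9.15 in control, and none of them was called by limma (3 with an unadjusted p below 0.05). Of the 10 osteoblast markers listed, *Runx2* was not measured. *Col1a1*, *Col1a2*, *Sparc* and *Postn* gave signals at or above percentile 99 on every array. The signal of *Ibsp*, the bone sialoprotein gene, stayed at or below percentile 35.1. *Ibsp* had a log2 fold change at 24 h of 0.50 (adjusted p = 0.367) and *Alpl*, the alkaline phosphatase gene, one of 0.28 (adjusted p = 0.368). Of 10 mature adipocyte markers listed, 8 were measured, without *Cfd* and *Plin1*. The mean over these 8 mature adipocyte markers was 3.56 to 3.84 at LIPUS 24 h, 3.53 to 3.92 at LIPUS 6 h and 3.60 to 4.04 in control. Within experiments it was lower at LIPUS 24 h than in control in 3 of 3, by mean log2 ratios of -0.04, -0.01 and -0.25, and at LIPUS 6 h in 2 of 3 (-0.07, 0.01 and -0.11). Of these 8 none was called (2 with an unadjusted p below 0.05). The largest changes among them at 24 h were *Cidec* at -0.31 (adjusted p = 0.337) and *Aqp7* at -0.27 (adjusted p = 0.293). The brightness of the 8 differed: *Adipoq*, the gene for adiponectin, ranked between percentiles 7.85 and 21.3, whereas *Retn* and *Slc2a4* ranked between 51.6 and 59.0. The 9 macrophage markers averaged 4.07 to 4.39, 4.06 to 4.35 and 4.11 to 4.36 for LIPUS 24 h, LIPUS 6 h and control, with none called (1 with an unadjusted p below 0.05). The largest changes among these at 24 h were *Cd14* at -0.18 (adjusted p = 0.101) and *Fcer1g* at 0.18 (adjusted p = 0.591). The 8 endothelial markers averaged 3.99 to 4.13, 3.94 to 4.20 and 4.03 to 4.17 in the same order, and *Flt1* was lower at 24 h (-0.26, adjusted p = 0.0482) and lower than at 6 h (-0.37, adjusted p = 0.0156). The other marker lists also shifted within experiments at LIPUS 24 h against control. Their mean log2 ratios were -0.02, 0.08 and 0.16 for osteoblast and -0.03, 0.03 and -0.04 for macrophage markers. For endothelial markers they were 0.05, -0.05 and -0.17. The part of these markers in the values of the 10 genes was not tested. The dishes held a single line, and in their RNA fewer cells of a given state and less RNA per cell cannot be told apart.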

How the data were processed

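Total RNA (500 ng) of each culture was hybridized by the authors to a Mouse Genome 430 2.0 array, and the deposited values are log2 signals that the authors made with RMA, per the labels. The version and settings of RMA are not given in the sources used here, and the number of arrays limits the precision. Of 45101 probe sets, 64 hybridization controls were left out. The platform annotation gave 1 symbol for 34945 of the rest, several for 932 and none for 9160. Group differences were computed with limma 3.58.1 in R 4.3.3 (lmFit, then eBayes with trend) over the 9 arrays, the experiment entering as a fixed block (4 residual and 3.00 prior degrees of freedom), with Benjamini-Hochberg adjustment over 45037 probe sets and a threshold of 0.05. The experiment is the replicate number in the labels. Deviations from the group means correlated by 0.701 to 0.933 in 9 same-number pairs, and each of 9 arrays had its best correlation within its own number. The study describes repeated experiments, and the labels do not say that a replicate number marks one of them, so this pairing rests on the correlations. The values identical within numbers 2 and 3 also raise these correlations, which therefore do not by themselves show a shared experiment. The 10 genes and the lists were chosen with earlier results of these data known. Every probe set of the 10 genes was named, and of each list up to 4 called genes with the largest change at 24 h or, where none was called, up to 2 by value. Outside this rule, and with their values known, *Me1*, *Lrp1* and *Acly* were named. The same holds for *Col1a1*, *Col1a2*, *Sparc*, *Postn*, *Adipoq*, *Retn* and *Slc2a4*, which were named for their brightness. The list genes were counted by the fit over all probe sets, and no set test was run. The fit was tested on simulated data, with 50 changed probe sets at each fold. It recovered 7 at 1.2-fold, 29 at 1.5-fold, 43 at 2-fold and 49 at 3-fold, so a small change can go uncalled. The simulated arrays lacked the identical values seen in experiments 2 and 3. Promoter windows were searched for motifs on both strands. Alternatives concerned the block, the variance trend, the arrays and probe sets included, the normalization, the threshold and the methods' t-test.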

Additional observations from a re-analysis of the deposited data

Results flagged for a closer look

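*Apod* (1416371_at) differed between LIPUS 24 h and LIPUS 6 h, with a log2 fold change of 0.97 (limma, adjusted p = 8.38e-05). The difference was positive in 3 of 3 experiments. Time after LIPUS and time in culture cannot be told apart in it. On *Fabp4* 1417023_a_at every LIPUS 24 h array was below its control and every LIPUS 6 h array was above it, and the difference between 24 h and 6 h was -0.87. That difference did not pass the direct test (limma, adjusted p = 0.174), and the signal ranked between percentiles 25.4 and 52.1 of an array.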

How the results depend on the processing

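Without the replicate block, 1 probe set of all was called at 24 h against control (1229 with it) and 0 at 24 h against 6 h (909 with it). Of the 19 probe sets 0 were then called in either comparison, with adjusted p = 0.134 for *Apod* and 1.00 for *Plin2* at 24 h. With the block as a random effect, 1 probe set of all was called at 6 h, and 3 of the 19 at 24 h against control (*Apod*, *Plin2* and *Fabp4* 1451263_a_at) and 3 at 24 h against 6 h (*Apod* and 2 of *Fabp4*). Without the intensity trend, 522 and 354 of all were called at 24 h against control and against 6 h, and 1 of the 19 against control. With only the 6 arrays compared these were 5, 8 and 1. The methods' t-test called 351, 53 and 299 of all at 24 h against control, 6 h against control and 24 h against 6 h, and 1 of the 19 at 24 h, unadjusted, and 0 in each after Benjamini-Hochberg. An adjusted p below 0.1 gave 1878 of all at 24 h, and 2 of the 19 at 24 h against 6 h. A fit on the brighter 22519 probe sets, which hold 9 of the 19, called 2 of these at 24 h against 6 h. Leaving out an experiment or an array gave 0 to 1439 of all at 24 h, 0 to 38 at 6 h and 0 to 1498 at 24 h against 6 h. For the 19 these were 0 to 3 at 24 h, 0 to 0 at 6 h, and 0 to 3 at 24 h against 6 h. By 1.5-fold in each experiment they were 1 to 2, the 2 being without experiment 3, which adds *Fabp4* 1451263_a_at. The fewest calls came without experiment 1 (0 and 0 of all at 24 h against control and against 6 h). Over 22 alternatives the log2 fold change of *Apod* at 24 h stayed within 1.02 to 1.06, with the call kept in 19, and that of *Plin2* within -0.19 to -0.15, with the call kept in 8. Of 1224 values of the 19 probe sets under the alternatives, 1192 kept their call or lack of it (60 values that were not called changed sign), 20 lost a call, 12 gained one and 0 called values changed sign. The cause of these shifts was not tested, beyond the fewer arrays in some fits.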
